A study of Homo sapiens with 8 samples.

Results

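The 4 arrays of U373 cells that had received progesterone were compared with the 4 arrays that had not, out of 8 arrays in all. U373 is an established human astrocytoma line. Members were taken from the sample titles. The arrays with progesterone were 2 from cells given 10 nM progesterone alone and 2 from cells given 10 nM progesterone together with 1 µM RU-486. The arrays without it were 2 from cells given vehicle and 2 from cells given 1 µM RU-486 alone, so RU-486 (mifepristone, an antagonist of the progesterone and glucocorticoid receptors) was present in 2 of the 4 arrays on each side. Cells of every group were kept in medium with hormone-free serum before treatment, RNA was taken after 12 h, and total RNA was read on whole-transcript arrays. The titles give RU-486, whereas other fields of the same samples give a different compound number, and the label for the cell line shortens the name. The replicates are called biological, but separate cultures are not named, so that p-values measure only the spread between these samples.

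Progesterone acts mainly through the progesterone receptor, a nuclear receptor that binds DNA as a ligand-activated transcription factor and is held by chaperones until hormone arrives. Faster actions go through membrane proteins of the PAQR family and through PGRMC1 and PGRMC2, and progesterone can bind the glucocorticoid receptor weakly. In brain the hormone is also a source of neurosteroids that act on GABA-A receptors, and in astrocytoma cells it has been studied for effects on growth and invasion.

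Values are log2 expression levels, in which a difference of 1 is a factor of 2. Differences are means of the arrays with progesterone minus means of the arrays without it and are given ± SE of the fit, and brackets hold the 95% interval. The average over both backgrounds is made of 2 comparisons that share no array. These are progesterone minus vehicle, without RU-486, and combination minus RU-486, with the antagonist present throughout. The arrays are listed as vehicle, RU-486, progesterone and combination, replicate 1 before replicate 2. A gene is said not to overlap when its 4 arrays with progesterone all lie on 1 side of its 4 arrays without it. The average difference of such a gene cannot turn sign when an array is left out. Precision is limited by the number of arrays.

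In the average over both backgrounds, no gene of 18417 passed. Limma called 0 genes (0%) at an adjusted p under 0.05, and the smallest adjusted p was 0.722. At an unadjusted p under 0.05 there were 926 genes, of which 589 (3.2%) were higher and 337 (1.83%) lower with progesterone. By sign alone, 11275 of all genes (61.2%) were higher. A further 13837 probe sets with several gene symbols or none gave 0 calls. Without overlap, 372 genes (2.02%) were higher and 154 (0.836%) lower. Progesterone minus vehicle gave 0 calls (0%) and 1129 genes (6.13%) at an unadjusted p under 0.05. Combination minus RU-486 gave 0 calls (0%) and 874 genes (4.75%), and the test of the difference between these comparisons gave 0 calls (0%) and 972 genes (5.28%). Without progesterone replicate 2, limma called 1228 genes in progesterone minus vehicle, still 0 in the average, where 5980 genes then had an unadjusted p under 0.05. In that fit the progesterone group is 1 array, whose spread is assumed to be that of the other groups.

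The largest differences were on the lower side, and most were of small non-coding RNA genes. All 20 genes that differed by over 0.5 on average were lower with progesterone, and 16 of them were small RNA genes. The other 4 were ANKRD36BP1 at -0.60 ± 0.21, LOC100419773 at -0.59 ± 0.24, the HSP90 pseudogene HSP90AA6P at -0.58 ± 0.17 and LOC399975 at -0.50 ± 0.15, named after their values were seen. Small RNA genes made up 69 of the 337 genes that were lower at an unadjusted p under 0.05 (20.5%) and 11 of the 589 that were higher, while they are 412 of the 18417 genes tested (2.24%). Of the 154 genes that were lower without overlap, 43 were small RNA genes (27.9%), against 4 of the 372 higher ones. In these bulk samples, fewer cells of a type and less RNA per cell cannot be told apart. A ranking by size favours genes with a wide spread, and the median SE over all genes was 0.078. The probe sets of small RNA genes name the gene and do not separate the mature RNA from its precursor.

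The comparisons without and with RU-486 share no array, so each gene has 2 separate differences. Over all genes 9978 had the same sign in both (54.2%), and Pearson's r across genes was 0.137, a description over genes measured on the same arrays. Over the 412 small RNA genes r was 0.349. No gene was higher by over 0.4 in both comparisons, whereas 21 were lower by over 0.4 in both, and 17 of these were small RNA genes. Alone, progesterone minus vehicle had 198 genes higher and 143 lower by over 0.4, and combination minus RU-486 had 47 higher and 469 lower.

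**Figure D1:**
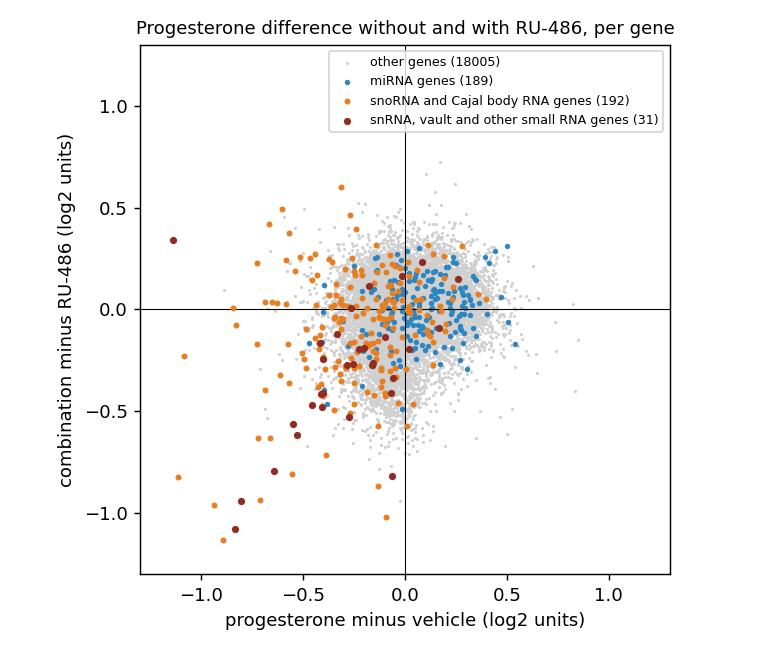
Each point is 1 of 18417 genes, with its progesterone minus vehicle difference on the x axis and its combination minus RU-486 difference on the y axis, both in log2 units, and small RNA classes in colour. The points in the far lower left are mostly small RNA genes, 17 of the 21 genes that are lower by over 0.4 in both.

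The spliceosomal small nuclear RNAs (snRNAs), with other short structural RNAs, stood lowest as a class. The snRNAs form the core of the particles that remove introns. The class of 31 measured genes also holds vault RNA, RMRP, RPPH1, RNY1 and RN7SL genes, which are not spliceosomal. Over all genes 1.83% were lower at an unadjusted p under 0.05 and 0.836% lower without overlap. Of the 31, 27 were lower with progesterone, 15 (48.4%) at that p and 12 without overlap. Their median difference was -0.26, at -0.26 in progesterone minus vehicle and -0.27 in combination minus RU-486, beside medians over all genes of 0.03, 0.004 and 0.04. Relative to its mean over all arrays, the class stood at 0.21 and 0.12 with vehicle and at 0.11 and 0.15 with RU-486. It stood at -0.08 and -0.18 with progesterone and at -0.33 and 0.001 with the combination, so the class means did not overlap, and combination replicate 2 was the nearest to the arrays without progesterone. Leaving out each array in turn left 25 to 28 of the 31 lower, with 9 to 19 at an unadjusted p under 0.05, the 9 without combination replicate 1.

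U5 snRNA, the component of the tri-snRNP that aligns the exons, was lower with all 5 of its measured genes, each at an unadjusted p under 0.05. RNU5D-1 was at 9.72 and 9.47 with vehicle, 9.31 and 9.85 with RU-486, 8.96 and 8.56 with progesterone, and 8.19 and 8.82 with the combination. Every array with progesterone was below every array without it, and the difference was -0.96 ± 0.19 (-0.83 without and -1.08 with RU-486). RNU5F-1 was at 7.94, 7.66, 7.64 and 7.99 without progesterone and at 6.92, 7.07, 6.43 and 7.32 with it, again with no overlap, a difference of -0.87 ± 0.20. RNU5E-1, the brightest U5 gene, was at 11.91, 11.54, 11.51 and 11.72 without and at 11.18, 11.20, 10.63 and 11.37 with progesterone. Its arrays did not overlap either, at -0.57 ± 0.17, and RNU5B-1 differed by -0.56 ± 0.16 without overlap. RNU5A-1 was the exception in its pattern. It was at 7.27 and 7.12 with vehicle and 7.85 and 7.73 with RU-486, and at 7.21, 7.05, 6.98 and 6.96 with progesterone. The arrays overlapped, and the average of -0.44 ± 0.07 was made of -0.06 without RU-486 and -0.82 with it. RNU5A-1 stayed lower when each array was left out in turn. The other 4 genes had no overlap, so their sign could not turn in that check. The U5 genes are near-identical copies, so their probe sets can share signal and their number is not a number of separate measurements.

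The U4 genes, which pair with U6 in the tri-snRNP, followed. RNU4-2 was at 7.05 and 7.21 with vehicle, 7.34 and 7.48 with RU-486, 6.70 and 6.75 with progesterone, and 6.89 and 7.10 with the combination. Combination replicate 2 was above vehicle replicate 1, and the difference was -0.41 ± 0.08, with -0.41 in each comparison. RNU4ATAC, its counterpart in the minor spliceosome that removes a rare class of introns, was at 11.51, 11.57, 11.51 and 11.42 without and at 11.24, 11.03, 10.71 and 11.26 with progesterone. Its arrays did not overlap, at -0.44 ± 0.12. RNU4-1 differed by -0.21 ± 0.11, RNU6ATAC by -0.23 ± 0.07, RNU2-1 by -0.22 ± 0.13 and RNU11 by -0.19 ± 0.21. RNU12 differed by 0.04 ± 0.09. The sign turned for RNU11 without progesterone replicate 2 and for RNU12 without progesterone replicate 1. All 8 variant genes of U1, which recognises the start of introns, were lower, with a median of -0.28, 5 at an unadjusted p under 0.05 and 2 without overlap. The lowest p among them was that of RNVU1-8, at -0.32 ± 0.09. The U1 variants are also near-identical, and their separate values are uncertain.

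**Figure D2:**
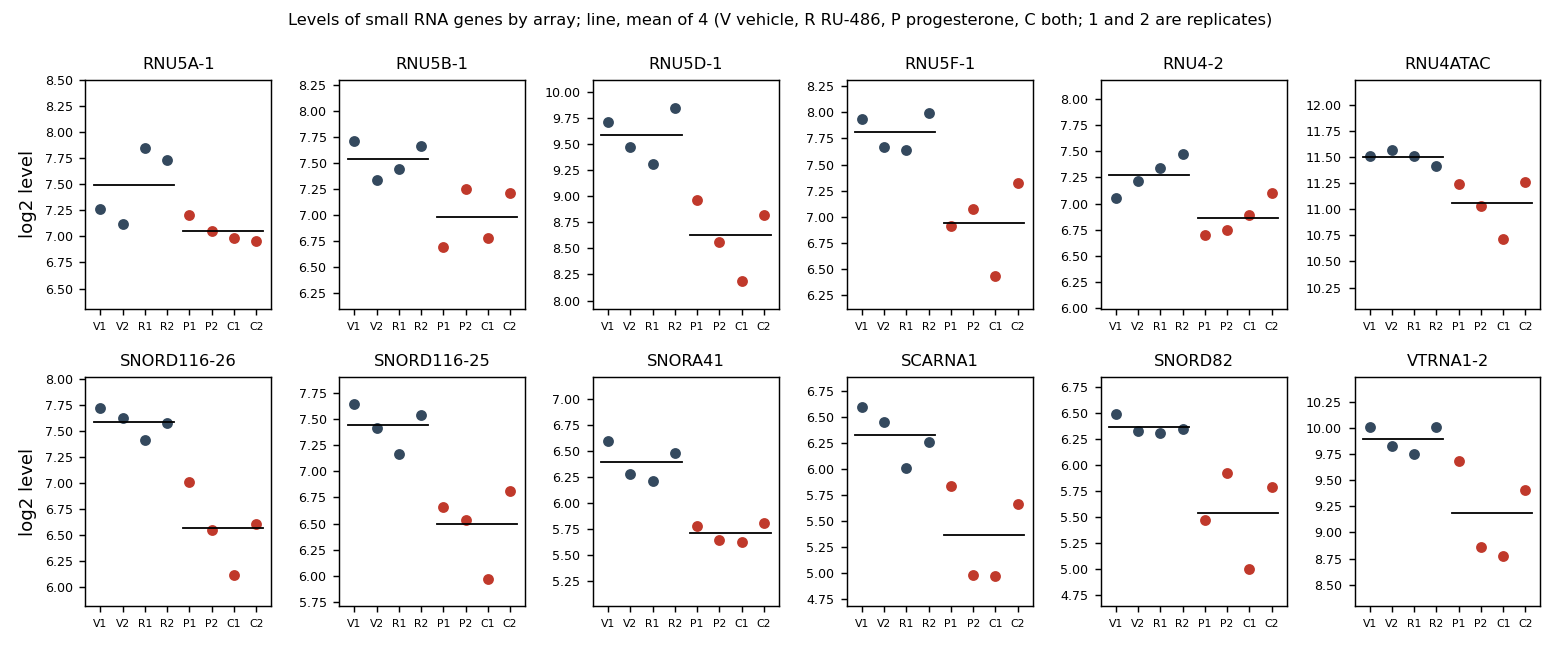
Log2 level of 12 small RNA genes on each array (y axis, the same span in each panel), with points in dark blue for arrays without progesterone, in red for arrays with it, and a line at each mean of 4 arrays. In 10 of the panels no red point reaches a blue one, while RNU5A-1 and RNU4-2 overlap.

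Vault RNAs, short RNAs of the vault particle in the cytoplasm, gave 3 lower averages with unlike patterns. VTRNA1-2 was at 10.01, 9.83, 9.75 and 10.01 without progesterone, and at 9.68, 8.86, 8.77 and 9.41 with it. Its arrays did not overlap, at -0.72 ± 0.21. VTRNA1-3 differed by -0.46 ± 0.21 without overlap. VTRNA1-1 was at 7.50 and 7.54 with vehicle and 5.93 and 6.82 with progesterone, and at 7.41 and 7.11 with RU-486 and 7.78 and 7.42 with the combination. It was lower by 1.14 in the first comparison (-1.14) and higher by 0.34 in the second, and the test of that difference had a limma adjusted p of 0.828. RMRP, the RNA of a ribonuclease that processes ribosomal RNA, was at 12.12, 12.02, 12.02 and 12.03 without and 11.94, 11.63, 11.60 and 11.91 with progesterone. The difference was -0.28 ± 0.10 with no overlap. RPPH1, the RNA of the ribonuclease that trims transfer RNA, differed by -0.24 ± 0.13 without overlap. RNY1, a Ro-associated RNA, differed by 0.08 ± 0.32 and its sign turned without vehicle replicate 2, progesterone replicate 2, RU-486 replicate 2 or combination replicate 2.

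Small nucleolar RNAs guide modification of ribosomal and small nuclear RNA, the C/D box class by methylation and the H/ACA class by pseudouridylation. Of 115 C/D box genes 94 were lower with progesterone, 33 at an unadjusted p under 0.05 and 15 without overlap, while 21 were higher, 2 at that p and 0 without overlap. Of 61 H/ACA genes 43 were lower, 14 at that p and 11 without overlap, and 18 were higher, 1 at that p. Of 16 small Cajal body RNAs, which guide modification of snRNAs, 10 were lower and 3 had an unadjusted p under 0.05, the same number as had no overlap. Over all genes 1.83% were lower at that p and 0.836% lower without overlap. The medians were -0.14, -0.11 and -0.13. The C/D box median was -0.24 in progesterone minus vehicle and -0.05 in combination minus RU-486, and the H/ACA median -0.14 and -0.03. Outside the SNORD115 and SNORD116 clusters, described below, 75 C/D box genes had medians of -0.27 and -0.004, with 70 and 38 lower. On average 65 of these 75 were lower, 19 at that p and 9 without overlap. The differences between the medians of the 2 comparisons were not tested.

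By array, the C/D box class stood at 0.13 and 0.04 with vehicle, 0.06 and 0.12 with RU-486, -0.27 and -0.07 with progesterone, and -0.04 and 0.04 with the combination, relative to its mean over all arrays. Progesterone replicate 1 was the lowest, and combination replicate 2 lay just below the lowest array without progesterone. The Cajal body class stood at 0.09 on combination replicate 2, among the arrays without progesterone, and at -0.14, -0.18 and -0.13 on the other arrays with it. Leaving out each array in turn left 82 to 98 of the C/D box genes lower. The number at an unadjusted p under 0.05 ran from 12 without vehicle replicate 1 to 50 without progesterone replicate 2. It was 17 and 16 without RU-486 replicates 1 and 2, 16 without combination replicate 1, and 21 without vehicle replicate 2. For the H/ACA genes 38 to 45 were lower and 7 to 20 had that p, the 7 without RU-486 replicate 2, and 9 and 8 without vehicle replicates 1 and 2.

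**Figure D3:**
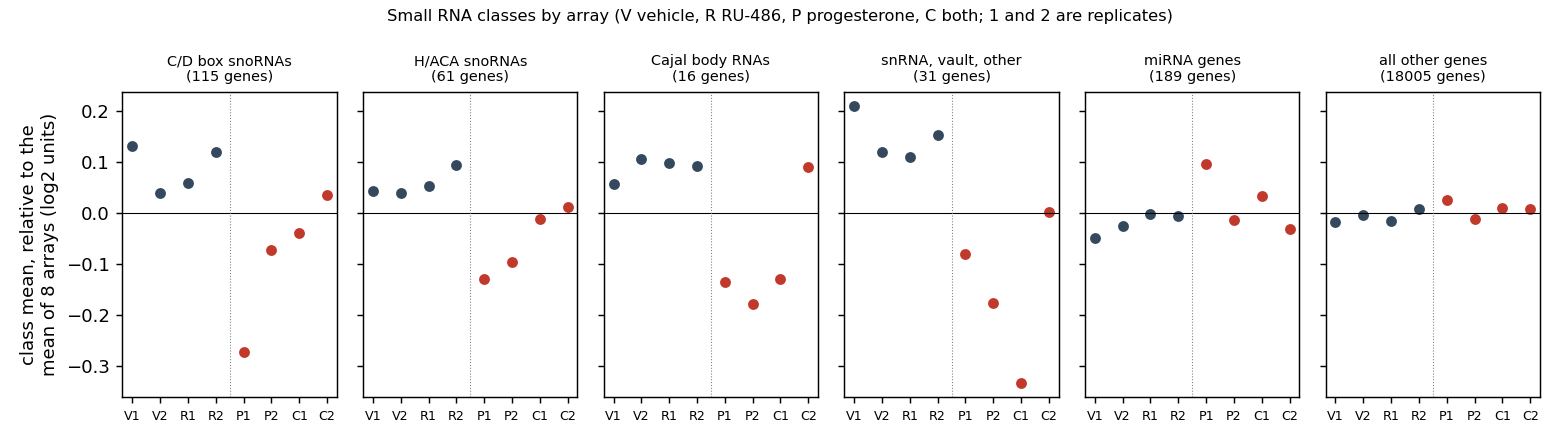
Mean of each small RNA class on each array, relative to its mean over the 8 arrays (y axis, log2 units), with arrays without progesterone in dark blue and arrays with it in red. The class of snRNA, vault and other small RNA genes does not overlap between the sides. For the Cajal body class combination replicate 2 lies among the blue points, and the mean of all other genes stays near 0.

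The SNORD116 cluster, imprinted C/D box copies from the Prader-Willi region without a known target in ribosomal RNA, was lower in all 20 of its measured copies. The median was -0.33 and the range -1.01 to -0.13, with 13 at an unadjusted p under 0.05 and 6 without overlap, against 1.83% and 0.836% of all genes. All 20 were lower in progesterone minus vehicle (median -0.43) and 19 of 20 in combination minus RU-486 (median -0.23). All 20 stayed lower when each array was left out, while 6 had an unadjusted p under 0.05 without vehicle replicate 1, RU-486 replicate 1, RU-486 replicate 2 or combination replicate 1, 7 without progesterone replicate 1, and 18 without progesterone replicate 2.

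SNORD116-26 had the largest average difference of all 18417 genes. It was at 7.72 and 7.62 with vehicle, 7.41 and 7.58 with RU-486, 7.01 and 6.54 with progesterone, and 6.12 and 6.61 with the combination. The arrays did not overlap, and the difference was -1.01 ± 0.14 [-1.35 to -0.68], at -0.90 without and -1.13 with RU-486, with an unadjusted p of 0.000165 and a limma adjusted p of 0.722. SNORD116-25 differed by -0.95 ± 0.19 and SNORD116-13 by -0.65 ± 0.17, both without overlap. The copies are similar in sequence, so a value cannot be given to 1 copy with certainty, though their mean levels ran from 3.16 to 12.96. The brightest copies, with mean levels of 11.5 to 13.0, differed by only -0.25 to -0.17. The neighbouring SNORD115 cluster was dim. Its 20 copies had a median level of 2.76, none above 6.22, and a median difference of 0.01, with 9 of 20 lower. The value 6.22 is the 95th percentile of 341 olfactory receptor genes, which are not known for expression in glia, and is used here to describe dim genes.

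Among other snoRNAs, SNORA41 was at 6.59, 6.27, 6.21 and 6.48 without and 5.78, 5.64, 5.62 and 5.80 with progesterone, all 4 below all 4, at -0.68 ± 0.10. SNORD82 was at 6.49, 6.32, 6.30 and 6.35 without and 5.47, 5.92, 5.00 and 5.78 with progesterone, at -0.82 ± 0.18. SCARNA1 was at 6.60, 6.45, 6.01 and 6.26 without and 5.84, 4.98, 4.97 and 5.66 with progesterone, at -0.97 ± 0.22. These 3 RNAs crossed from just above or near 6.22 to below it. SCARNA10 (-0.68 ± 0.18) and SNORD50A (-0.39 ± 0.08), a host-intron C/D box RNA, were brighter and had no overlap, and SNORA46 differed by -0.32 ± 0.06. SNORA14A had the smallest p of the snoRNAs but rested on 1 comparison. It was at 10.00 and 10.02 with vehicle against 9.26 and 9.10 with progesterone, and at 9.76 and 9.82 with RU-486 against 9.74 and 9.69 with the combination. The average of -0.45 ± 0.06 was made of -0.83 and -0.07.

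The genes that surround snoRNAs had smaller differences than the snoRNAs. Most human snoRNAs are cut from introns of host genes. Of the 192 snoRNA and Cajal body RNA genes, 99 lie inside another measured gene, 77 such genes in all, by RefSeq coordinates on GRCh38.p14. Strand and position in an intron were not checked, so a gene around an RNA need not be its host. The nested RNAs had a median difference of -0.13 and the genes around them -0.02. Of the 99 RNAs, 73 (73.7%) had a lower difference than the gene around them. Across the 99 pairs Pearson's r was 0.079, a description over pairs that share arrays. Of the 77 genes around, 49 were lower, 1 at an unadjusted p under 0.05 and 0 higher at that p, against 1.83% and 3.2% of all genes. Of 17 genes on a list of snoRNA hosts, both non-coding and protein-coding, 13 were lower, 1 at an unadjusted p under 0.05, and a median of -0.04. In progesterone minus vehicle 16 of the 17 were lower, at a median of -0.08, and in combination minus RU-486 the median was 0.03.

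Genes for proteins that build these particles differed less than the RNAs. Of 21 genes for snoRNP and snRNP assembly 16 were lower, none at an unadjusted p under 0.05, with a median of -0.03. NOP58, a core C/D box protein, differed by -0.31 ± 0.16 (-0.02 without and -0.59 with RU-486). NAF1, which loads the H/ACA core, differed by -0.18 ± 0.08 (-0.30 and -0.06). DKC1, the pseudouridine synthase, differed by -0.10 ± 0.05 (-0.19 and -0.02). Over all genes 1.83% were lower at that p. Of 24 ribosome assembly genes 12 were lower and 12 higher, with 1 at an unadjusted p under 0.05, UTP20 at -0.31 ± 0.12. Of 19 genes of miRNA processing and nuclear RNA decay 12 were lower, 1 at that p. This was RBM7, an adaptor of the nuclear exosome, at -0.34 ± 0.12 (-0.49 without and -0.20 with RU-486). DIS3, the exosome's nuclease, differed by -0.32 ± 0.16 (-0.09 and -0.55) and the helicase MTREX by -0.24 ± 0.12 (-0.07 and -0.42).

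MicroRNA genes did not share the direction of the other small RNAs. Of 189 measured, 124 were higher and 65 lower, with a median of 0.04 against 0.03 over all genes. At an unadjusted p under 0.05, 8 (4.23%) were higher and 4 (2.12%) lower, against 3.2% and 1.83% of all genes. Only 60 of them lay above 6.22, and 42 of those 60 were higher, with a median of 0.09. Their median was 0.15 in progesterone minus vehicle and 0.01 in combination minus RU-486, where 29 of the 60 were lower. Relative to their mean over all arrays, these 60 stood at 0.16 on progesterone replicate 1. They stood at -0.04 on progesterone replicate 2, 0.02 and -0.01 with the combination, and -0.06 on both vehicle arrays. MIR106B had the smallest p of the non-overlapping miRNA genes. It is shown with its neighbours MIR93 and MIR25 because the 3 genes lie side by side inside MCM7, are processed from its introns, and 2 of them share a seed. The mature sequences, from RefSeq on GRCh38.p14, are printed 5′ to 3′ with the seed (bases 2 to 8) in capitals. They lie on the minus strand at chr7:100094043-100094063 (miR-106b-5p), chr7:100093815-100093837 (miR-93-5p) and chr7:100093571-100093592 (miR-25-3p), and below them stand the 5p arms of MIR100, at chr11:122152275-122152296, and MIR192, at chr11:64891203-64891223, also on the minus strand.
hsa-miR-106b-5p: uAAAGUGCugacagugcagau
hsa-miR-93-5p: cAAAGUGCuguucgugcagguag
hsa-miR-25-3p: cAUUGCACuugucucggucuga
hsa-miR-100-5p: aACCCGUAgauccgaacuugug
hsa-miR-192-5p: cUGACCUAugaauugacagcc
The probe sets name the gene and do not separate the arms, or the mature RNA from its precursor.

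MIR106B was at 6.2 and 6.26 with vehicle, 6.36 and 6.50 with RU-486, 6.67 and 6.58 with progesterone, and 6.74 and 6.64 with the combination. All arrays with progesterone were above all arrays without it, a difference of 0.33 ± 0.06 (0.39 without and 0.26 with RU-486). MIR93, which has the same AAAGUGC seed, was at 6.29, 6.23, 6.39 and 6.47 without and 6.56, 6.35, 6.71 and 6.56 with progesterone. Its arrays overlapped, at 0.20 ± 0.07, and MIR25 differed by 0.17 ± 0.06, also with overlap. MCM7 itself, a subunit of the replicative helicase, differed by 0.01 ± 0.06 at a mean level of 12.0 on both sides, and its sign turned without combination replicate 1. MIR93, MIR25 and MCM7 were added after their values were seen.

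MIR192 was at 5.02, 5.19, 5.36 and 5.44 without and 5.65, 5.44, 5.81 and 5.56 with progesterone, at 0.36 ± 0.09 with overlap. MIR100 was the lowest in p on the other side, at 4.13, 4.0, 3.72 and 3.75 without and 3.57, 3.78, 3.36 and 3.32 with progesterone. Its arrays overlapped too, at -0.39 ± 0.07, and its mean level was 3.70. MIR130A (0.21 ± 0.06), MIR182 (0.14 ± 0.06) and MIR211 (0.12 ± 0.07) were higher without overlap. Of the miRNA genes named here MIR106B, MIR93, MIR25 and MIR211 had means above 6.22.

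On the higher side, differences were small and mostly of dim genes. Of the 589 genes that were higher at an unadjusted p under 0.05, 337 (57.2%) had a mean level below 6.22, against 45 of the 337 lower ones (13.4%) and 27.5% of all genes. The median difference was ordered by level too. With genes in 5 equal bins by mean level, it was 0.06 in the lowest bin (72.9% of genes higher), 0.07 in the next (74.9%), 0.03 in the middle (58.2%), and -0.001 and 0.001 in the upper bins (49.7% and 50.4%). This order was seen in progesterone minus vehicle, from 0.09 and 0.12 in the lower bins to -0.05 and -0.04 in the upper ones. On single arrays, relative to the mean of all arrays, the 2 lowest bins stood at 0.11 and 0.16 on progesterone replicate 1. They stood at -0.04 and -0.06 on progesterone replicate 2, and between -0.08 and -0.05 on the vehicle arrays, so the shift was seen on 1 of the 2 progesterone arrays. Combination minus RU-486 did not have it, at 0.03, 0.03, 0.04, 0.06 and 0.05. Small RNA genes other than miRNA genes had negative medians at every level, at -0.05, -0.16, -0.16, -0.19 and -0.21 from the lowest bin to the highest. In the highest bin 33 of 37 were lower.

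**Figure D4:**
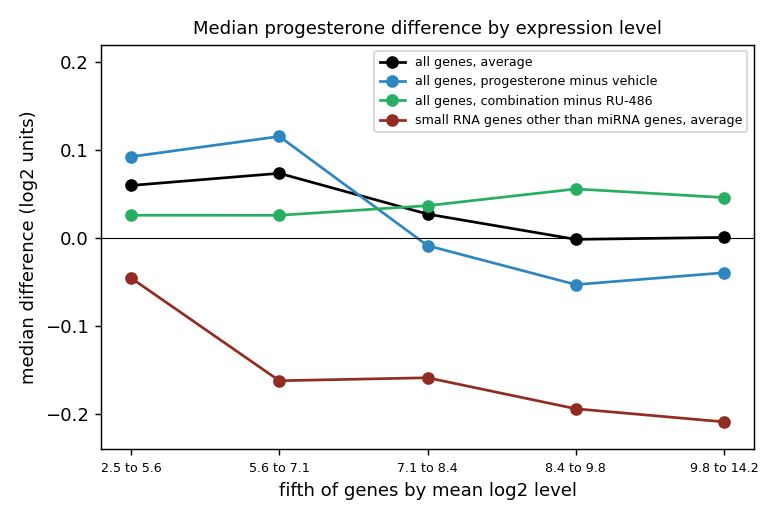
Median difference (y axis, log2 units) over genes in 5 bins of equal size by mean log2 level (x axis), for the average over all genes, for each of its comparisons, and for small RNA genes other than miRNA genes. The average over all genes is 0.06 in the lowest bin and 0.001 in the highest, and the small RNA line is below 0 in all bins.

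The arrays of 1 group were less alike than the rest. Differences between the replicates of a group, taken gene by gene, had an SD of 0.35 with progesterone alone, while the other groups had 0.16 to 0.18. The main direction of variation within groups held 66.4% of that variance, with scores of 21.8 and -24.7 for progesterone replicates 1 and 2, and the scores averaged 5.50 over the arrays with progesterone and -5.50 over those without. Its part in the differences was not tested beyond a fit with the score as a covariate, in which limma called 0 genes. With that covariate, the median of the small RNA genes other than miRNA genes was -0.10, against -0.15 without it.

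Among protein-coding genes, the 10 with the smallest p and no overlap on the higher side were OR10D3, DQX1, CSPG4, PCDHA11, PNPLA4, OR6F1, OR4D11, DNAJC5G, PAGE4 and LRRC19, with differences of 0.25 to 0.42. Their levels were at or near the dim range. CSPG4, the NG2 proteoglycan of glial progenitors and gliomas, was at 5.55, 5.68, 5.70 and 5.81 without and 5.89, 5.94, 6.09 and 6.06 with progesterone, 0.31 ± 0.06 [0.17 to 0.45]. The difference was 0.30 without and 0.32 with RU-486. PNPLA4, a lipase that acts on retinyl esters, was at 5.34, 5.36, 5.44 and 5.45 without and 6.16, 5.80, 5.60 and 5.71 with progesterone. The difference was 0.42 ± 0.09, and progesterone replicate 1 was the highest array. PCDHA11, a clustered protocadherin, differed by 0.30 ± 0.06, at 0.49 without and 0.11 with RU-486. OR10D3, OR6F1 and OR4D11 are olfactory receptors, of which 26 of 341 (7.62%) were higher at an unadjusted p under 0.05, against 3.2% of all genes, and 0 lower. The class stood at 0.16 on progesterone replicate 1 and at -0.06 on progesterone replicate 2, beside -0.06 and -0.05 on the vehicle arrays.

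Of the 10 protein-coding genes with the smallest p and no overlap on the lower side, 8 had mean levels above 6.22, and MPEG1 and PLSCR4 lay below it. ETV1, an ETS transcription factor downstream of ERK signalling, was at 8.0, 8.09, 8.08 and 8.32 without and 7.67, 7.74, 7.80 and 7.94 with progesterone. All 4 arrays with the hormone were lower, at -0.34 ± 0.08 [-0.51 to -0.16], with -0.34 and -0.33 in the 2 comparisons. ACTR6, an actin-related subunit of a chromatin remodeller, was at 7.73, 7.89, 7.54 and 7.79 without and 7.21, 7.50, 7.25 and 7.39 with progesterone, at -0.40 ± 0.10. TLR4, the receptor for bacterial lipopolysaccharide, was at 9.55, 9.72, 9.55 and 10.01 without and 9.47, 9.26, 9.22 and 9.33 with progesterone, at -0.39 ± 0.11. ANXA3, a calcium-dependent phospholipid-binding annexin, differed by -0.31 ± 0.09 with nearly the same value in both comparisons (-0.32 and -0.31). The remaining 6 were H2AC12 (-0.35 ± 0.09), DCPH1 (-0.30 ± 0.08), GLRB (-0.26 ± 0.07), CRYGS (-0.26 ± 0.07), MPEG1 (-0.23 ± 0.06) and PLSCR4 (-0.21 ± 0.06). GLRB, the beta subunit of the glycine receptor, was lower by 0.45 (-0.45) without RU-486 and by 0.07 (-0.07) with it.

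The progesterone receptor gene lay in the range of the olfactory receptor genes. PGR was at 4.59 and 4.44 with vehicle, 4.49 and 4.75 with RU-486, 4.91 and 4.55 with progesterone, and 4.57 and 4.49 with the combination, beside a median of 4.64 over the olfactory receptors. The arrays overlapped fully, and the difference was 0.06 ± 0.10 [-0.18 to 0.30], with its sign turned without progesterone replicate 1. PGRMC2, a membrane-associated haem protein, differed by -0.01 ± 0.07 [-0.17 to 0.16]. Of the membrane progestin receptors, PAQR5 differed by 0.12 ± 0.07, PAQR6 by 0.12 ± 0.08, PAQR7 by 0.05 ± 0.14 [-0.27 to 0.37] and PAQR8 by -0.02 ± 0.07. The signs of PGRMC2, PAQR7 and PAQR8 turned when the arrays were quantile-normalised again, that of PGRMC2 also when they were centred on the median, and those of all 3 without progesterone replicate 1. PGRMC2 also turned without vehicle replicate 2 or RU-486 replicate 2, PAQR7 without vehicle replicate 2 or RU-486 replicate 1, and PAQR8 without combination replicate 1. NR3C1, the glucocorticoid receptor, was at 10.07, 10.17, 9.92 and 10.07 without and 9.88, 10.20, 9.61 and 9.76 with progesterone, at -0.20 ± 0.09 [-0.40 to 0.01]. ESR1 differed by -0.03 ± 0.07, with its sign turned without RU-486 replicate 2, and the membrane oestrogen receptor GPER1 by 0.17 ± 0.08 [-0.03 to 0.36]. Of 12 receptor genes measured 8 were higher and 4 lower, 0 at an unadjusted p under 0.05, and PGRMC1 is not analysed here.

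Known progestin-responsive genes of breast and endometrium lay around 0. Of 26 measured from a list of 30, 14 were higher and 12 lower. At an unadjusted p under 0.05 there was 1, higher, against 3.2% of all genes, and 0 had no overlap. Their median was 0.03, the same as over all genes to 2 decimals. The range was -0.06 to 0.21. The highest was ELF5, a mammary transcription factor, at 0.21 ± 0.08 [0.03 to 0.39], made of 0.39 without and 0.03 with RU-486. Progesterone replicate 1 stood at 5.6 against 5.27 to 5.32 on the other arrays with the hormone. Several of these genes also respond to glucocorticoids. TSC22D3 differed by -0.02 ± 0.08 [-0.21 to 0.18], SGK1 by -0.06 ± 0.06 [-0.21 to 0.09], KLF9 by -0.01 ± 0.07 [-0.18 to 0.16], PER1 by 0.13 ± 0.06 [-0.01 to 0.27] and ZBTB16 by 0.17 ± 0.10 [-0.06 to 0.39]. The sign of TSC22D3 turned without vehicle replicate 1 or RU-486 replicate 2, and that of KLF9 without vehicle replicate 2, progesterone replicate 2 or combination replicate 1. Over 23 glucocorticoid receptor targets the median was 0.02, with 12 higher, 11 lower and 0 at an unadjusted p under 0.05. FKBP5 is not analysed here.

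**Figure D5:**
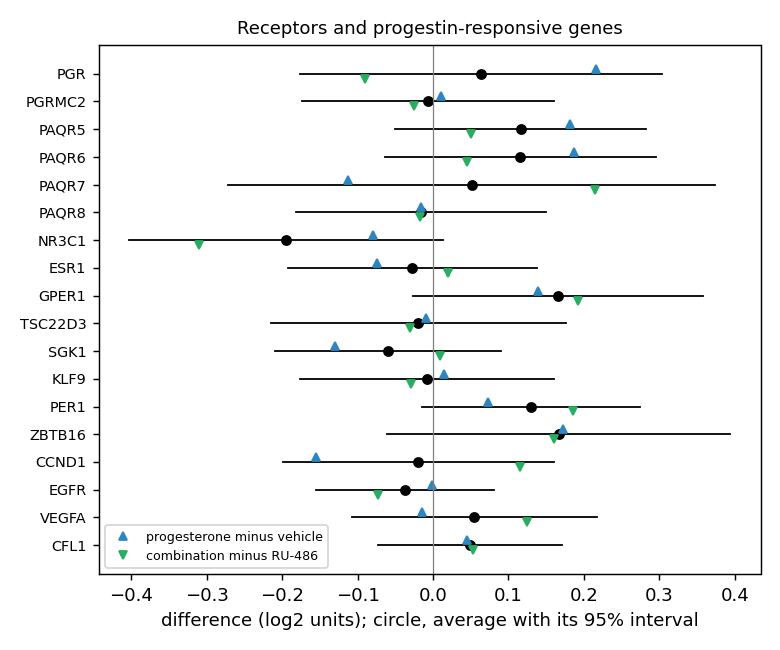
Average difference with its 95% interval (circle and line) for 9 receptor genes and 9 progestin-responsive or growth genes, with progesterone minus vehicle as an upward triangle and combination minus RU-486 as a downward triangle (x axis, log2 units). All of the intervals include 0, and no circle lies beyond 0.2 on either side.

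Genes linked to growth of astrocytomas had intervals that include 0 for each gene fixed by name. CCND1, a G1 cyclin, differed by -0.02 ± 0.08 [-0.20 to 0.16], EGFR by -0.04 ± 0.05 [-0.16 to 0.08] and VEGFA by 0.05 ± 0.07 [-0.11 to 0.22]. CFL1, the actin-severing protein cofilin, had no overlap at 0.05 ± 0.05 [-0.07 to 0.17], and its arrays lay between 13.20 and 13.29. PIBF1 differed by -0.31 ± 0.40 [-1.25 to 0.63] and the proliferation marker MKI67 by -0.16 ± 0.18 [-0.59 to 0.27]. The sign turned for CCND1 without progesterone replicate 2, RU-486 replicate 2 or combination replicate 2, for VEGFA without RU-486 replicate 1, and for PIBF1 and MKI67 without progesterone replicate 1. Over 26 genes for growth factors, their receptors and motility, 15 were higher and 11 lower, 0 at an unadjusted p under 0.05. The G1/S list of 24 genes had a median of 0.01 (-0.06 without and 0.10 with RU-486), and the G2/M list of 29 had -0.05 (0.009 and -0.14), both with 0 genes at an unadjusted p under 0.05. Among 17 cell cycle inhibitors and p53 targets 11 were lower, 1 at an unadjusted p under 0.05 against 1.83% of all genes. FAS, a death receptor, differed by -0.35 ± 0.12 (-0.35 without and -0.34 with RU-486). MDM2 differed by -0.30 ± 0.14 (-0.09 and -0.50) and ZMAT3 by -0.22 ± 0.09 (-0.08 and -0.36).

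Cholesterol synthesis genes shared the direction of the average but not of its parts. All 14 measured were lower on average, 0 of them without overlap. At an unadjusted p under 0.05 there were 4 (28.6%), against 1.83% of all genes. The differences ran from -0.28 to -0.002 with a median of -0.03, beside a median SE over all genes of 0.078. Several members counted as lower thus lay near 0. In progesterone minus vehicle all 14 were lower, at a median of -0.16, whereas in combination minus RU-486 9 were higher and 5 lower, at a median of 0.08. CYP51A1, the lanosterol demethylase, was at 10.93 to 11.16 on the arrays without progesterone, 10.82 and 10.77 with progesterone, and 10.90 and 10.94 with the combination. The difference was -0.17 ± 0.06, nearly the same in both comparisons (-0.17 and -0.16), with combination replicate 2 just above vehicle replicate 2. IDI1, which isomerises isopentenyl diphosphate, differed by -0.18 ± 0.07, SC5D, a late desaturase, by -0.28 ± 0.11 and HMGCS1, the synthase before the rate-limiting step, by -0.17 ± 0.07. HMGCS1 was named after its value was seen.

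Genes of steroid metabolism and neurosteroid targets had 1 member each without overlap, of 26 and 12 genes. Over all genes 2.02% were higher and 0.836% lower without overlap. HSD17B2, which oxidises oestradiol and can convert a reduced progestin to progesterone, was at 5.71, 5.66, 5.91 and 5.80 without and 6.23, 5.95, 6.16 and 6.02 with progesterone. The difference was 0.32 ± 0.08 at a dim level, and of 26 genes of steroid synthesis and metabolism 14 were higher and 12 lower. HSD17B6 differed by -0.16 ± 0.06. GABRG1, a GABA-A receptor subunit, was at 3.58, 3.72, 3.67 and 3.5 without and 3.84, 3.77, 3.96 and 4.05 with progesterone, at 0.29 ± 0.07, which is also in the dim range. Of 12 GABA-A subunit genes 8 were higher and 4 lower. For both lists, the gene named as not overlapping was the only such member in either direction.

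Interferon-stimulated genes had 15 of 21 higher, 3 (14.3%) at an unadjusted p under 0.05 against 3.2% of all genes, and the same number without overlap. IFI27 was at 6.73, 6.53, 6.69 and 6.66 without and 6.92, 6.83, 6.87 and 6.84 with progesterone, at 0.21 ± 0.07. ISG15, a ubiquitin-like modifier, was at 7.35, 7.38, 7.44 and 7.36 without and 7.56, 7.57, 7.49 and 7.46 with progesterone, at 0.14 ± 0.05. OAS1, a sensor of double-stranded RNA, differed by 0.16 ± 0.06. The list median was 0.06, with 0.08 in progesterone minus vehicle and -0.02 in combination minus RU-486. The list as a whole stood highest on progesterone replicate 2 (0.21) and vehicle replicate 2 (0.10), and between -0.07 and -0.04 on the other arrays. Among 12 genes of Wnt feedback, LGR5, a receptor for R-spondins, was at 9.47 and 9.54 with vehicle, 9.05 and 9.27 with RU-486, and between 9.01 and 9.08 on the arrays with progesterone. The difference was -0.29 ± 0.07, at -0.48 without and -0.11 with RU-486. NOTUM and RNF43, inhibitors of Wnt signalling, differed by 0.26 ± 0.10 and 0.18 ± 0.07.

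Other large families were counted beside these. Replication-dependent histone genes had 44 of 57 lower, 8 (14.0%) at an unadjusted p under 0.05 and 1 without overlap, against 1.83% and 0.836% of all genes, with a median of -0.08. H3C1 differed by -0.29 ± 0.09 and H3C12 by -0.32 ± 0.11. Genes with a ribosomal protein symbol, a pseudogene among them, had 66 of 89 lower and a median of -0.03, and 79 of the 89 were above 6.22. In progesterone minus vehicle 69 were lower (median -0.08), while in combination minus RU-486 48 were higher (median 0.0096). Among them RPS7 was at -0.19 ± 0.06 with no overlap. Of 80 oxidative phosphorylation genes 51 were lower. Among them COX7C, a subunit of cytochrome oxidase, differed by -0.22 ± 0.07 without overlap, UQCRB of complex III by -0.28 ± 0.10 and NDUFB6 of complex I by -0.23 ± 0.08. The amino acid and ER stress list had 18 of 24 lower at a median of -0.02. Its parts went opposite ways, with 20 of 24 lower in progesterone minus vehicle (median -0.11) and 20 of 24 higher in combination minus RU-486 (median 0.08). Relative to its mean over all arrays it was below 0 on the 4 arrays without RU-486 and above 0 on the 4 with it, at -0.15 and -0.19 with vehicle and -0.27 and -0.33 with progesterone, and at 0.14 and 0.28 with RU-486 and 0.27 and 0.25 with the combination.

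Markers of astrocytes and glioma were present. VIM, a glial intermediate filament protein, had a mean of 13.4 on each side, NES, nestin, 8.69 with and 8.61 without progesterone, and GFAP, the astrocyte filament, 7.58 and 7.50. Of the 13 markers measured, 10 were above 6.22, 8 were higher and 5 lower, with a median of 0.01. AQP4, the astrocyte water channel, was dim, at 3.98 to 4.26 over all arrays. SLC1A3, a glutamate transporter, differed by -0.16 ± 0.06 and GJA1, connexin 43, by -0.19 ± 0.09. Marker lists of other cell types were higher in most members, but so were 61.2% of all genes. That share was 72.9% and 74.9% in the 2 lowest bins by level. The counts were 7 of 7 for oligodendrocytes (median 0.14) and 8 of 8 for microglia and leukocytes (median 0.08), of which 2 were above 6.22. For neurons 6 of 8 were higher (0.09), for endothelium 5 of 6 (0.06) and for epithelium 5 of 6 (0.05). The oligodendrocyte list stood at 0.30 on progesterone replicate 1 and between -0.10 and 0.06 on the other arrays with progesterone, against -0.15 to -0.03 on the arrays without it. The microglia and leukocyte list stood at 0.14 on progesterone replicate 1 and between 0.01 and 0.04 on the other arrays with progesterone. Without progesterone it stood between -0.16 and -0.001. The part of these lists in the other differences was not tested.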

How the data were processed

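The deposited values are log2 levels, 1 for each probe set on each array, and RMA, limma and oligo are the tools that the submitters' processing notes name. Versions and settings are not given in the sources used here. RMA, as a method, corrects background, quantile-normalises the arrays and summarises probes, which removes a shift that most genes of an array have in common, and differences of dim genes are compressed. Of 33297 probe sets, 19460 carry 1 gene symbol in GEO's platform annotation, 1754 carry more than 1, and 12083 carry none. 19429 of the first matched a RefSeq identifier (GRCh38.p14) and 0 symbols changed. For 769 genes with several probe sets the one with the highest mean was kept, leaving 18417 genes with no filter on level. Array medians ran from 6.93 to 7.02.

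The fit used group means of all 8 arrays (limma 3.58.1, R 4.3.3, lmFit and eBayes, with 4 residual degrees of freedom), with Benjamini-Hochberg adjustment over all genes and a threshold of 0.05. All p-values are two-sided and from this fit. It was tried on simulated data with independent noise of the same spread in every group. The simulation does not cover the unequal spread of these arrays, where the replicate SD was 0.35 with progesterone alone and 0.16 to 0.18 elsewhere. The members and the 47 gene lists were chosen with earlier results of these data known, so lists are described by counts and medians and get no test of their own. Genes are named where arrays do not overlap (the 10 lowest p each way among named protein-coding genes, 8 each way among small RNA genes, up to 8 each way by over 0.4 in both comparisons), as up to 3 members of a list with the lowest p, as a fixed set of receptors and targets, and as the 5 lowest p of the interaction. Other members of the snRNA, vault and SNORD116 groups, GPER1, ELF5 and single genes marked so were named after their values were seen. The alternatives tried were a block on the replicate number, each array left out, array weights, an intensity trend, an additive model, other scalings, a filter on dim genes, other probe set rules and the within-group score as a covariate.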

Additional observations from a re-analysis of the deposited data

Results flagged for a closer look

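In 12 of 270 groups of 4 arrays, over 135 genes and classes, 1 array lay far from the other 3 for the group's range. Chance alone marks about 1 in 20 groups. Among the arrays without progesterone, SNORA46 was at 5.80 on RU-486 replicate 1 (5.91 to 5.92 on the others), RMRP at 12.1 on vehicle replicate 1 (12.02 to 12.03), RPPH1 at 10.7 on RU-486 replicate 1 (10.5 to 10.6), PAQR6 at 7.64 on vehicle replicate 2 (7.79 to 7.80) and MCM7 at 12.02 on vehicle replicate 1 (11.98 to 11.99). Among the arrays with progesterone, progesterone replicate 1 was the odd array for PAGE4 at 5.45 (5.34 to 5.36), ELF5 at 5.6 (5.27 to 5.32), PCDHA13, a clustered protocadherin, at 7.74 (7.43 to 7.47) and LOC100419773 at 4.68 (5.47 to 5.58). Combination replicate 1 was the odd array for IDI1 at 10.8 (11.05 to 11.09) and AQP4 at 4.22 (4.25 on the others), and combination replicate 2 for RNVU1-8 at 6.22 (5.95 to 5.98).

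For 3 genes every array moved one way without RU-486 and the other way with it. The difference between the comparisons was 1.48 for VTRNA1-1 (-1.14 and 0.34), 1.09 for SNORA14B, an H/ACA snoRNA (-0.60 and 0.49), and -0.71 for CLRN2 (0.48 and -0.23). The interaction test of limma gave each an adjusted p of 0.828.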

How the results depend on the processing

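The average effect had 0 called genes under all 18 alternatives run, as had combination minus RU-486, and the interaction had 0 under its 17. Progesterone minus vehicle had 0 under all but 1, with 0 to 1228 when arrays were left out, the latter without progesterone replicate 2, where the progesterone group is 1 array assumed to vary like the other groups. In the average, leaving out an array moved the genes at an unadjusted p under 0.05 from 926 to between 402 (without combination replicate 1) and 5980 (without progesterone replicate 2). The smallest adjusted p (limma) then lay between 0.0766 and 0.982. The replicate number gives only 2 pairs per comparison and was not treated as a pairing. Replicate differences of the groups correlated across genes at 0.197 to 0.511, and with the number as a block 0 genes were called and 2017 had an unadjusted p under 0.05. That block left the small RNA median at -0.03 and changed no call.

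The median over all 412 small RNA genes, -0.03, was -0.063 after a second quantile normalisation, -0.11 with a filter on dim genes, and -0.046 to -0.012 with arrays left out, the last without combination replicate 2. Of 130 named genes 113 kept their sign throughout, and of 2303 gene and setting pairs 43 turned sign and 0 crossed the threshold. Many of these genes were named because their arrays do not overlap, and their sign could not turn when an array was left out. The average had 0 calls under every alternative, so no named gene could cross the threshold. With arrays left out, the ranges were -0.028 to 0.15 for PGR, -0.067 to 0.053 for PGRMC2, -0.049 to 0.15 for PAQR7, -0.062 to 0.030 for PAQR8, -0.081 to 0.026 for ESR1, -0.090 to 0.052 for TSC22D3, -0.057 to 0.042 for KLF9, -0.086 to 0.047 for CCND1 and -0.0011 to 0.11 for VEGFA. They were -0.80 to 0.18 for PIBF1, -0.35 to 0.026 for MKI67, -0.43 to 0.043 for RNU11, -0.050 to 0.12 for RNU12, -0.19 to 0.34 for RNY1, -0.029 to 0.044 for MCM7, -0.0041 to 0.17 for GFAP and -0.0014 to 0.018 for VIM. Quantile normalisation turned PGRMC2 (0.0099), PAQR7 (-0.0082) and PAQR8 (0.0093), centring turned PGRMC2 (0.00016), and the mean over probe sets turned ESR1 (0.0099). With the within-group score as a covariate, PGR was -0.015, PGRMC2 0.051, PAQR7 -0.044, PAQR8 0.022, PIBF1 0.15, MKI67 0.032, RNU12 -0.036 and MCM7 -0.00025. The cause was not tested. With 2 arrays per group and 4 residual degrees of freedom, the median SE of an average difference was 0.078.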

Other observations

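Signalling and metabolic gene lists not yet described had medians of -0.03 to 0.07, beside 0.03 over all genes, of which 61.2% were higher. Of 16 chaperones and coregulators of steroid receptors, 7 were higher and 9 lower, and of 25 immediate early genes 14 and 11, with 0 at an unadjusted p under 0.05 in both. Of 19 NF-kappaB targets and cytokines 1 was higher at that p, against 3.2% of all genes, IL1B at 0.24 ± 0.09. Notch and Hedgehog targets had 14 of 16 higher (median 0.07) and matrix and invasion genes 22 of 28 (median 0.06), none at that p. The medians of the TGF-beta targets, 15 in number, and of 16 circadian clock genes lay within 0.01 of 0. Of 18 hypoxia and glycolysis genes 13 were higher (median 0.03), and of 8 cholesterol efflux genes 6 (median 0.07). Of 16 NRF2 targets and metallothioneins 12 were lower (median -0.03). Of 13 fatty acid oxidation genes 8 were higher (median 0.04), while ACAA2, the last enzyme of the mitochondrial cycle, differed by -0.18 ± 0.06. CCNB1IP1, counted among the snoRNA hosts, differed by -0.23 ± 0.10.

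Families of mostly dim or repeated genes had 59 of 68 keratin-associated protein genes higher (median 0.11, with KRTAP11-1 at 0.25 ± 0.08) and 3 of 3 T cell receptor and immunoglobulin segments. The keratin-associated list stood at 0.25 on progesterone replicate 1 and between -0.09 and 0.05 on the other arrays with the hormone. Of 29 clustered protocadherins 19 were higher, 4 (13.8%) at an unadjusted p under 0.05 against 3.2% of all genes. Among them were PCDHA3 at 0.25 ± 0.08 and PCDHA13 at 0.20 ± 0.07. Of 439 zinc finger genes 271 were lower (median -0.05), 15 (3.42%) at that p, against 1.83% of all genes. Of the higher ones 7 (1.59%) had that p, against 3.2% of all genes. In the marker lists, SYT1 of neurons differed by 0.16 ± 0.07, OLIG1 of oligodendrocytes by 0.22 ± 0.09, CSF1R of microglia by 0.24 ± 0.13 and KRT19 of epithelium by 0.30 ± 0.14.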
